A study of Mus musculus with 8 samples.

Results

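The genes of the major histocompatibility complex (MHC) and of antigen presentation were followed in granulocytic myeloid-derived suppressor cells (Gr-MDSCs) treated with Dactolisib, Dasatinib or DMSO. The 32 members were chosen by name: every gene with a symbol starting with H2- that has a probe set of its own on the array, together with Cd74, Ciita, B2m, Tap1, Tap2, Tapbp, Tapbpl, Erap1 and Cd1d1. They stand among 18193 genes with such a probe set, and each was read from its probe set with the highest mean signal over the 8 arrays. Of the 32 members, 18 belong to class I (12 chains and 6 assembly genes), 11 to class II (5 chains and 6 genes of loading and control), and 3 to neither: Cd1d1, H2-D4 and H2-Ke6. The 30025 probe sets with the highest mean signals were tested. They hold 30 of the members, while H2-Q2 and H2-Ob were too dim.

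Class I molecules are made by nearly all nucleated cells. They pair an MHC-encoded heavy chain with beta-2-microglobulin and present peptides that the TAP transporter carries into the endoplasmic reticulum, where they are trimmed and loaded for CD8+ T cells. Class II molecules are made mainly by dendritic cells, macrophages and B cells, are transcribed under the coactivator CIITA, and are loaded with peptides from endosomes for CD4+ T cells. Granulocytes carry class I and usually little class II.

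The study asked how kinase inhibitors change Gr-MDSCs of a mouse prostate cancer that resists castration. RNA was measured on Affymetrix whole-genome mouse arrays, 1 per sample, as log2 signals. The groups were Dactolisib (a PI3K and mTOR inhibitor; 0.1 uM, n = 2), Dasatinib (a tyrosine kinase inhibitor; 0.1 uM, n = 2) and DMSO (n = 4), each for 6 h in culture. The treatment was read from the array titles, because the treatment field of the 2 Dasatinib samples names Dactolisib. All donors were CPPSML males, which carry the PB-Cre+ transgene, floxed alleles of 3 tumor suppressors (PtenL/L, p53L/L and Smad4L/L) and the reporters mTmGL/+ and LSL-LucL/+, and which were 8 to 12 weeks old at the start and 12 to 16 weeks by the sample labels. When the prostate tumor measured 150 mm3 they were castrated and given enzalutamide in the diet for 4 weeks, so the DMSO samples share the tumor, the castration and the enzalutamide. The probasin promoter (PB) drives Cre in prostate epithelium, so that the deletions are those of the tumor cells, and the Gr-MDSCs were taken from the tumor by magnetic sorting. The sources used here name no strain and leave unsaid whether each sample was an animal or culture of its own. The p-values therefore measure the spread from sample to sample, which may be technical.

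S100a9, a calgranulin abundant in granulocytes, had a log2 signal of 13.69 to 14.12 over the arrays, near the top of the scale. Some other granulocyte markers varied more. Itgam had 10.62 and 10.16 under Dactolisib, 9.37 and 10.25 under Dasatinib, and 10.74, 10.14, 10.90 and 9.38 on DMSO 2 to 5. Ltf had 12.82 and 9.50 under Dactolisib, 12.48 and 9.29 under Dasatinib, and 12.83, 9.51, 12.94 and 12.30 under DMSO. Mmp8 had 7.48 on Dasatinib 1 and 9.08 to 9.70 on the other arrays. Without any member gene, the 8 arrays clustered into 3 sets that cross the treatments. Dactolisib 1 lay in set A beside DMSO 2 and DMSO 4, both drugs' replicate 2 in set B beside DMSO 3, and Dasatinib 1 in set C beside DMSO 5. These sets come from the data and are not groups of the study. Epithelial markers differed between them: Krt8, a keratin of simple epithelia, lay at 13.37 and 13.31 in set C, at 9.88 to 10.43 in set A and at 8.09 to 8.33 in set B. Each comparison was therefore made with limma in 2 ways, without a block and within array sets, with the set as a block. Within array sets the Dactolisib arrays stand against DMSO 2 to 4, and the Dasatinib arrays against DMSO 3 and 5. DMSO 3 serves both drugs.

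In their brightest probe sets the classical class I heavy chains differed little between arrays, and other probe sets of the same genes varied more. H2-D1, a classical heavy chain, had log2 signals of 13.28 and 13.24 on Dactolisib 1 and 2, 13.27 and 13.26 on Dasatinib 1 and 2, and 13.27, 13.24, 13.31 and 13.22 on DMSO 2 to 5. H2-K1, the other classical heavy chain, had 13.19 and 13.15 under Dactolisib, 13.18 and 13.17 under Dasatinib, and 13.18, 13.16, 13.23 and 13.13 under DMSO. In these probe sets the treatments overlapped and the whole range over the 8 arrays was 0.09 for each gene. B2m, the light chain, lay at 12.97 and 13.13 under Dactolisib, 13.23 and 13.18 under Dasatinib, and 13.08, 13.16, 13.06 and 13.25 under DMSO. Its lowest value was that of Dactolisib 1, and the treatments overlapped. All 3 probe sets lay high on the scale of the table, where signals spread little in general: the median range over the 8 arrays was 0.28 for the 52 probe sets with a mean of at least 13, and 0.77 for the 2449 with a mean of 8 to 9.

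Over all probe sets of a gene, the range over the 8 arrays ran from 0.09 to 0.72 in H2-D1 (9 probe sets) and from 0.09 to 0.70 in H2-K1 (4 probe sets), so that the brightest probe sets do not show these chains to be constant. In the brightest ones Dactolisib differed from DMSO within array sets by log2 -0.01 ± 0.08 (SE) in H2-D1, with a 95% interval of -0.19 to 0.17. In H2-K1 the difference was -0.01 ± 0.08, with an interval of -0.19 to 0.17, and in B2m it was -0.07 ± 0.08, with an interval of -0.25 to 0.11. The H2-D1 probe set with the largest range (mean of 9.85) had 10.09 and 10.10 under Dactolisib, 9.75 and 9.92 under Dasatinib, and 9.80, 9.93, 9.82 and 9.38 under DMSO. Both Dactolisib values lay above all DMSO values there, with a difference of 0.23 ± 0.08 within array sets that did not pass (limma adjusted p = 0.125). Of the 9 H2-D1 probe sets 6 were higher and 2 lower on both Dactolisib arrays than on the DMSO arrays of the own set, and of the 4 of H2-K1 2 were higher and 2 lower. An H2-K1 probe set with a mean of 11.51 gave 11.39 and 11.66 under Dactolisib, 11.84 and 11.65 under Dasatinib, and 11.31, 11.64, 11.17 and 11.42 under DMSO. That probe set was highest on Dasatinib 1, lowest on DMSO 4, and higher on every array of set B than on any of set A. All 4 H2-K1 probe sets and 7 of the 9 of H2-D1 carry the suffix _x_at, which marks probes that also match other transcripts, so that signal of near-identical class I chains cannot be separated with certainty.

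**Figure D1:**
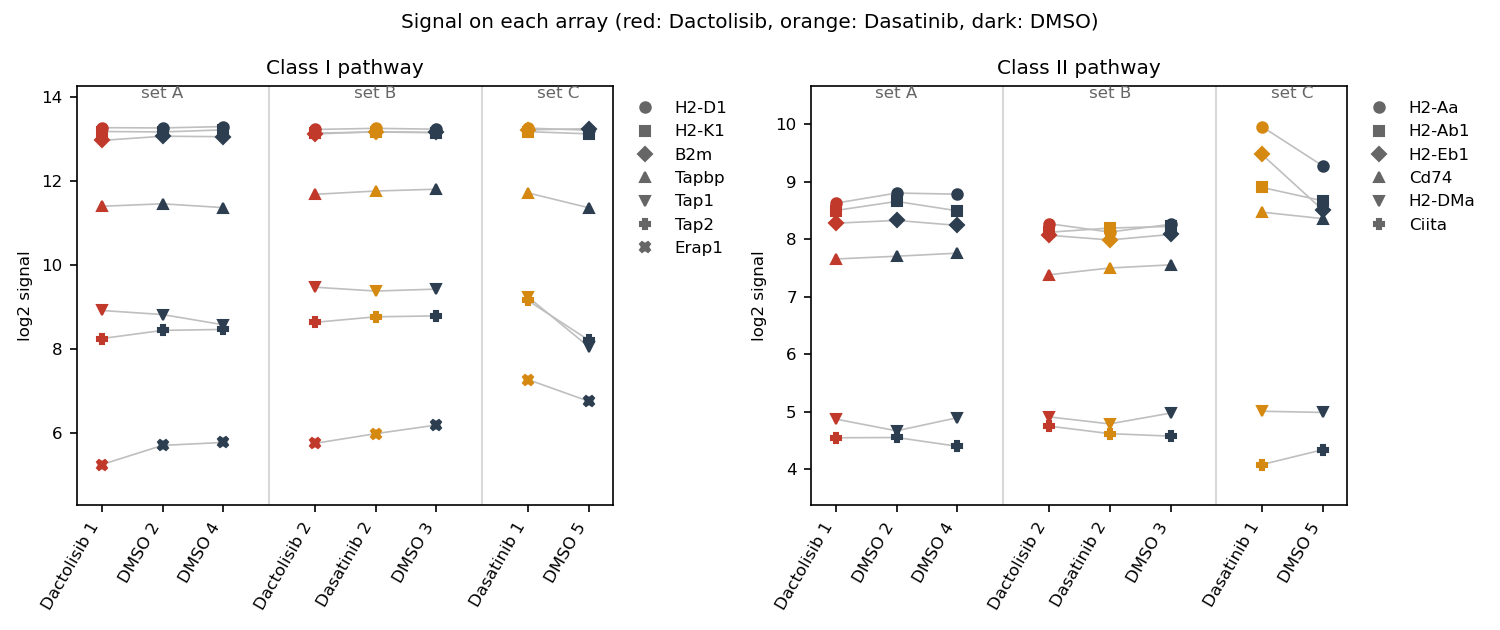
Log2 signal (y axis) of 7 class I pathway genes (left) and 6 class II pathway genes (right) on each of the 8 arrays (x axis), ordered by set. Points are single genes, and grey lines join the arrays of a set. Heights of different genes come from different probe sets and are not to be compared. H2-D1, in its brightest probe set, stays between 13.22 and 13.31, while Tap1 lies at 9.25 on Dasatinib 1 and 8.06 on DMSO 5, and H2-Aa at 9.96 and 9.27.

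Of the genes that supply and load class I peptides, Erap1 was lower under Dactolisib in both array sets that hold a Dactolisib array. Erap1, the aminopeptidase that trims peptides in the endoplasmic reticulum (chr13:74639573-74693205, GRCm38.p6), had log2 signals of 5.26 on Dactolisib 1 and 5.76 on Dactolisib 2. Under Dasatinib it had 7.28 and 5.99, and on DMSO 2 to 5 it had 5.71, 6.20, 5.78 and 6.76. The lowest of all 8 values was that of Dactolisib 1, and Dactolisib 2 lay below DMSO 3 of its own set but above DMSO 2, so that the treatments overlapped across sets. Against the DMSO arrays of the own set the difference was -0.49 on Dactolisib 1 and -0.44 on Dactolisib 2, while DMSO 2 minus DMSO 4 was -0.07. Erap1 was highest on both arrays of set C. Erap1 fell by log2 0.47 ± 0.08 (SE; limma within array sets, adjusted p = 0.0206). Without a block the difference was -0.61 ± 0.33, with adjusted p = 0.776 in limma.

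The call of Erap1 was lost without Dactolisib 1 (limma adjusted p = 0.214), without Dactolisib 2 or DMSO 3 (0.127 each), and with all 8 arrays in 1 fit (-0.38 ± 0.15, adjusted p = 0.192). Another Erap1 probe set gave 4.31 and 4.84 under Dactolisib, 5.56 and 5.08 under Dasatinib, and 4.50, 5.09, 4.60 and 4.97 under DMSO. It differed by -0.24 and -0.25 on Dactolisib 1 and 2 from the DMSO arrays of the own set. In bulk samples fewer cells of a type and less RNA per cell cannot be told apart, and markers of other cells moved on the same arrays. Of 8 epithelial markers 5 were lower on both Dactolisib arrays than on the DMSO arrays of the own set and 0 higher, and their summed signal was 12.27 on Dactolisib 1, against 12.63 and 12.57 on DMSO 2 and DMSO 4, and 10.23 on Dactolisib 2, against 10.45 on DMSO 3. Of 14 monocyte and macrophage markers 12 were lower on both and 2 higher, with a summed signal of 14.29 on Dactolisib 1, against 14.31 and 14.30, and of 14.49 on Dactolisib 2, against 14.52. That sum rests mainly on the bright Cd14, Csf1r and Cd68 and does not speak for the dimmer markers. C1qc, for example, had 6.42 and 6.56 under Dactolisib, against 6.91, 6.97 and 6.84 on DMSO 2 to 4. Of 12 granulocyte markers 8 were lower on both and 2 higher, and of all genes 35.4% were lower and 31.6% higher. In limma within array sets 3 of 14 monocyte and macrophage, 2 of 8 epithelial and 2 of 12 granulocyte markers passed as lower. In each of these lists 0 passed as higher. Of all genes 4.66% passed as lower and 2.24% as higher. The part of these cells in the Erap1 difference was not tested.

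Tap2 and Tap1 form the transporter that carries peptides into the endoplasmic reticulum. Tap2 had 8.26 and 8.64 under Dactolisib, 9.17 and 8.77 under Dasatinib, and 8.45, 8.80, 8.47 and 8.22 under DMSO. Tap1 had 8.93 and 9.48 under Dactolisib, 9.25 and 9.39 under Dasatinib, and 8.83, 9.43, 8.59 and 8.06 under DMSO. Within their own sets both Dactolisib arrays were low for Tap2 and high for Tap1. Tap2 differed by -0.18 ± 0.08 (SE) under Dactolisib within array sets (limma adjusted p = 0.201) and Tap1 by 0.14 ± 0.10 (limma adjusted p = 0.443). Tapbp, or tapasin, which holds empty class I molecules at the transporter, had 11.41 and 11.69 under Dactolisib, 11.73 and 11.77 under Dasatinib, and 11.47, 11.81, 11.37 and 11.37 under DMSO. Its 4 highest values were those of set B and Dasatinib 1. Tapbpl, a tapasin-related peptide editor, had 6.28 and 6.51 under Dactolisib, 7.39 and 6.73 under Dasatinib, and 6.38, 6.64, 6.43 and 6.74 under DMSO, with Dasatinib 1 the highest. Of the 6 assembly genes in their brightest probe sets, 5 were lower on both Dactolisib arrays than on the DMSO arrays of the own set. Tap1 was higher on both. The other Tapbpl probe set was higher on both, by 0.0043 and 0.23, and that of Tapbp differed by 0.0018 and -0.0763. Those of B2m and Erap1 were lower on both. Over all genes 35.4% were lower on both and 31.6% higher.

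Psmb10 and Psmb8, subunits of the immunoproteasome, which are not members but cut peptides for class I, also fell under Dactolisib. In a list of 12 genes of class I processing and control, 10 were tested. Within array sets 2 fell and 1 rose, against 4.66% and 2.24% of all genes. Psmb9, also an immunoproteasome subunit on the list, did not pass. It had 8.64 and 8.97 under Dactolisib, against 8.79, 9.08 and 8.53 on DMSO 2 to 4. Psmb10, a catalytic subunit of the immunoproteasome, had 7.43 and 7.90 under Dactolisib, 8.81 and 8.14 under Dasatinib, and 7.88, 8.37, 7.82 and 8.10 under DMSO. It fell by 0.44 ± 0.08 (SE; limma adjusted p = 0.0228), and Psmb8, another catalytic subunit, fell by 0.35 ± 0.08 (limma adjusted p = 0.0485). Nlrc5, the coactivator of class I genes, rose by 0.34 ± 0.08 (limma adjusted p = 0.0484), with 8.54 and 9.40 under Dactolisib, against 8.14, 9.13 and 8.14 on DMSO 2 to 4. All 3 calls were lost within array sets without Dactolisib 1, without Dactolisib 2 or DMSO 3, and with all 8 arrays in 1 fit, where limma adjusted p for Psmb10 was 0.198, 0.156 and 0.326. Those of Psmb8 and Nlrc5 were also lost without DMSO 2 (limma adjusted p = 0.0635 and 0.0565), without DMSO 4 (0.0547 and 0.0819) and with no filter (0.0819 and 0.0824), and that of Psmb8 with the mean of its probe sets (0.0754). Without a block 0 of the 10 passed in limma, with 0 at unadjusted p < 0.05.

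None of the nonclassical chains passed the test under Dactolisib, and those nearest the threshold were higher. H2-Q5, annotated in RefSeq as a transcribed pseudogene of the Q region, had 7.19 and 7.48 under Dactolisib, 7.20 and 7.27 under Dasatinib, and 6.90, 7.15, 6.73 and 6.61 under DMSO. Every Dactolisib value lay above every DMSO value. Within array sets H2-Q5 differed by 0.36 ± 0.09 (SE; limma adjusted p = 0.0544), and without a block by 0.49 ± 0.18 (limma adjusted p = 0.775). Under Dactolisib it passed within array sets with quantile normalization (limma adjusted p = 0.0431) and with 32 added before log2 (0.0144). It also passed with a stricter filter on low signals (0.0161), with the mean of probe sets (0.0281), with a trended and robust prior (0.0175) and without DMSO 2 (0.0233). H2-Bl, also a transcribed pseudogene, had 5.83 and 6.12 under Dactolisib, 5.88 and 5.93 under Dasatinib, and 5.67, 5.84, 5.60 and 5.75 under DMSO, which gave 0.24 ± 0.08 (limma adjusted p = 0.123). H2-M3, which presents formylated peptides, had 7.13 and 7.59 under Dactolisib, 6.80 and 7.23 under Dasatinib, and 6.97, 7.35, 7.11 and 7.08 under DMSO. Of the 11 tested class I chains, 6 were higher on both Dactolisib arrays than on the DMSO arrays of the own set and 4 lower. The lower ones were H2-D1 and H2-K1, in their brightest probe sets, H2-Q10 and H2-T24. Over all genes 31.6% were higher on both and 35.4% lower.

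None of the 5 class II chains passed the test under Dactolisib, and their differences from DMSO within array sets lay between -0.09 and 0.03. H2-Aa, the alpha chain of I-A, had 8.63 and 8.27 under Dactolisib, 9.96 and 8.12 under Dasatinib, and 8.80, 8.26, 8.78 and 9.27 under DMSO. H2-Ab1, its beta chain, had 8.50 and 8.12 under Dactolisib, 8.90 and 8.19 under Dasatinib, and 8.66, 8.22, 8.49 and 8.67 under DMSO. H2-Eb1, the beta chain of I-E, had 8.28 and 8.07 under Dactolisib, 9.47 and 7.99 under Dasatinib, and 8.33, 8.08, 8.24 and 8.51 under DMSO. These 3 chains were highest on the 2 arrays of set C and lowest in set B. Within array sets Dactolisib differed from DMSO by -0.09 ± 0.08 (SE) in H2-Aa, with a 95% interval of -0.28 to 0.10. In H2-Ab1 the difference was -0.09 ± 0.09, with an interval of -0.29 to 0.11, and in H2-Eb1 it was -0.01 ± 0.08, with an interval of -0.19 to 0.18. The 4 probe sets of H2-Aa were all highest on Dasatinib 1.

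The 5 tested genes that load class II or turn it on did not pass the test under Dactolisib either. Cd74, the invariant chain that guards the peptide groove, had 7.66 and 7.38 under Dactolisib, 8.47 and 7.50 under Dasatinib, and 7.70, 7.55, 7.76 and 8.36 under DMSO. It was highest in set C, and its difference under Dactolisib within array sets was -0.12 ± 0.08 (SE; limma adjusted p = 0.427). Ciita, the coactivator of class II genes, had 4.55 and 4.75 under Dactolisib, 4.08 and 4.62 under Dasatinib, and 4.55, 4.58, 4.40 and 4.34 under DMSO. H2-DMa, a chain of the peptide exchanger H2-DM, had 4.87 and 4.91 under Dactolisib, 5.01 and 4.79 under Dasatinib, and 4.67, 4.98, 4.90 and 4.99 under DMSO. Both lay near the array medians of 4.82 to 4.87, and the lowest value of Ciita was that of Dasatinib 1. In a list of 19 tested genes of class II processing and control, 1 rose and 1 fell under Dactolisib within array sets. Over all genes 2.24% rose and 4.66% fell. Rfx5, which binds the X box of class II promoters, rose by 0.39 ± 0.09 (limma adjusted p = 0.0492). Marchf1, a ubiquitin ligase that takes class II from the cell surface, fell by 0.46 ± 0.09 (limma adjusted p = 0.0296). Without a block limma adjusted p was 0.784 for Rfx5 and 0.832 for Marchf1. Within array sets both calls were lost without Dactolisib 1 (limma adjusted p = 0.332 and 0.296) and without Dactolisib 2 or DMSO 3 (0.197 and 0.115), and that of Rfx5 without DMSO 4 (0.0756), with all 8 arrays in 1 fit (0.0780) and with no filter (0.0792).

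H2-Aa, H2-Eb1, Tap1 and H2-K1 are shown with the sequence before an annotated start, as RefSeq gives it for GRCm38.p6. H2-Aa and H2-Eb1 were picked because they ran alike over the arrays. Tap1 was picked because it shares its upstream region with Psmb9, and H2-K1 because it is a classical class I chain. Each stretch covers the 250 bases before that start, 5′ to 3′ on the strand of the gene. H2-K1 had 2 windows, and the 1 shown lies inside the annotated span of the gene (chr17:33996012-34000619). Capitals mark matches on either strand to 4 letter patterns whose letters were chosen after these sequences had been read: the Y box (ATTGG), the X box (CTNGCAAC), an NF-kB site (GGGATTCCC) and an IRF site (AANNGAAA). The stretches are chr17:34287824-34288073 (minus strand) for H2-Aa, chr17:34305617-34305866 (plus strand) for H2-Eb1, chr17:34187306-34187555 (plus strand) for Tap1 and chr17:34000348-34000597 (minus strand) for H2-K1.
H2-Aa: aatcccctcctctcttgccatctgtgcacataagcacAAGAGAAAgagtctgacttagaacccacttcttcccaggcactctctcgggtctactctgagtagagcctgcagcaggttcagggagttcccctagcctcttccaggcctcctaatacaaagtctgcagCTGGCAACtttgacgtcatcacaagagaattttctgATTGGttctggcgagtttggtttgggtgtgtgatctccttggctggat
H2-Eb1: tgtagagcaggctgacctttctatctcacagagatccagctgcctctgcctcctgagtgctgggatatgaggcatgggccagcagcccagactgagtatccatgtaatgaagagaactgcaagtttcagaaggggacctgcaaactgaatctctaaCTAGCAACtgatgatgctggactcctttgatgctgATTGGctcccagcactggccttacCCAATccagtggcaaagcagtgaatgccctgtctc
Tap1: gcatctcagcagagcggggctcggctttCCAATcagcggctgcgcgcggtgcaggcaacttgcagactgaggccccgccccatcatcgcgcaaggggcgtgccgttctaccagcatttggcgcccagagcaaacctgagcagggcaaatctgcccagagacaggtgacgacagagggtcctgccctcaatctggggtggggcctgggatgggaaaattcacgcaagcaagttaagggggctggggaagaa
H2-K1: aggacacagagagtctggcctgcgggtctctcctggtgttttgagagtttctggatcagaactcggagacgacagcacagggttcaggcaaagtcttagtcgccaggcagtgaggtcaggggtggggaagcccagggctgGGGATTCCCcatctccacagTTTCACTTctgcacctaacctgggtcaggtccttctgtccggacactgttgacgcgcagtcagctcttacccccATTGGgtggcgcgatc

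In H2-Aa the X box letters began at position -84 and the Y box letters at -48, counted from the start, and in H2-Eb1 they began at -94 and -59. Of the 32 members 20 had a promoter window, 12 of class I and 7 of class II. The X box letters stood in 4 of the 7 class II members with a window and in 1 of 12 in class I, H2-D1. Of all 32851 windows of this length 2.84% held them. A member with several windows counted if any of them matched. The Y box letters stood in 7 of 7 class II members, 9 of 12 class I members and 33.8% of all windows. H2-K1 and H2-D1 were the only members with the NF-kB letters, which 0.301% of all windows hold. The IRF letters stood in 8 of 12 class I members, 3 of 7 class II members and 21.3% of all windows. The window of Erap1 (chr13:74639603-74639852) lies inside the annotated span of that gene and held none of the 4 patterns. A match is a stretch of letters and was not tested for binding. Because the letters were chosen with the shown stretches in view, matches in those stretches were fixed in advance. They include the X box letters of H2-Aa and H2-Eb1 and the NF-kB letters of H2-K1, which are counted above. The shares are therefore no test of enrichment among the members. Tap1 and Psmb9 start 225 bases apart on opposite strands, and Psmb9, an immunoproteasome subunit, had 8.64 and 8.97 under Dactolisib, 8.90 and 9.02 under Dasatinib, and 8.79, 9.08, 8.53 and 8.04 under DMSO. Like Tap1 it was lowest on DMSO 5.

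Across the members, 2 of 30 passed adjusted p < 0.05 under Dactolisib within array sets: Erap1 was lower and H2-Ke6 higher. H2-Ke6 lies in the MHC (chr17:34026033-34028055, GRCm38.p6) but encodes a steroid dehydrogenase, and is a member only by its name. It had 6.48 and 6.14 under Dactolisib, 6.53 and 5.84 under Dasatinib, and 6.15, 5.82, 6.02 and 6.35 under DMSO. Both Dactolisib arrays lay above the DMSO arrays of their own set, by 0.40 and 0.33, and the difference within array sets was 0.37 ± 0.08 (SE; limma adjusted p = 0.0461). The call was lost without Dactolisib 1 (limma adjusted p = 0.309), without Dactolisib 2 or DMSO 3 (0.192 each), without DMSO 4 (0.0788), with all 8 arrays in 1 fit (0.0562) and with no filter (0.0764). Over all 14238 genes tested, 2.24% rose and 4.66% fell in that comparison, so that 1 of 30 in each direction is near the share of all genes.

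At unadjusted p < 0.05 within array sets 3 members were higher and 2 lower under Dactolisib, against 9.17% and 15.1% of all genes. Without a block 0 members and 0% of genes passed after adjustment in limma, and at unadjusted p < 0.05 the count was 1 member higher, H2-Q5, against 2.73% of genes higher and 3.72% lower. Of the 30 tested members 11 were higher and 13 lower on both Dactolisib arrays than on the DMSO arrays of their own set, against 31.6% and 35.4% of all genes. The median difference within array sets was -0.01 for 17 class I members, -0.02 for 10 class II members and -0.0017 for all genes. Without a block it was 0.13 for class I, -0.07 for class II and 0.01 for all genes, and without DMSO 5 the class I value was -0.0022. DMSO 5 had the lowest value of all 8 arrays in Tap1, H2-Q10 and H2-T24.

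**Figure D2:**
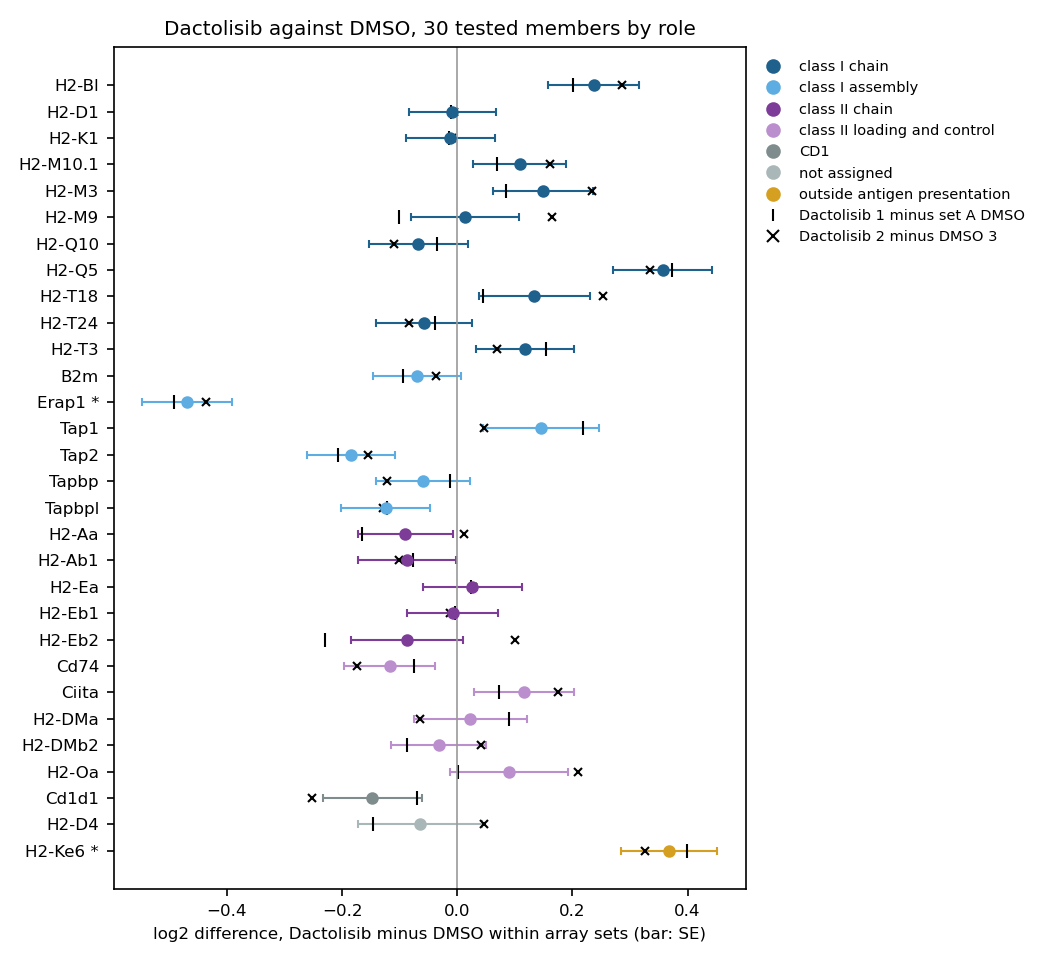
Log2 difference between Dactolisib and DMSO within array sets (x axis) for the 30 tested members by role (y axis). Points are limma estimates with SE (2 Dactolisib arrays against 3 DMSO arrays), black bars and crosses are the differences on Dactolisib 1 and Dactolisib 2, and an asterisk marks adjusted p < 0.05. Erap1 lies at -0.47 and H2-Ke6 at 0.37.

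Under Dasatinib several members were far above DMSO 5 in set C and close to DMSO 3 in set B. The difference between the sets was not tested. On Dasatinib 1 the largest difference from DMSO 5 was in H2-Q10, a class I chain that the mouse liver secretes, with 9.35 on Dasatinib 1 and 8.04 on DMSO 5, a log2 difference of 1.31. In set B H2-Q10 had 10.09 on Dasatinib 2 and 10.09 on DMSO 3. Its value on Dasatinib 1 lay below those of DMSO 2 to 4, at 9.82, 10.09 and 9.66, and DMSO 5 was the lowest of the 8 arrays. Tap1 was 1.19 above DMSO 5 on Dasatinib 1 and at -0.05 against DMSO 3 on Dasatinib 2, and Tap2 was at 0.95 and -0.02. Both chains of the transporter were above the DMSO array of their set on Dasatinib 1 only. Among the class II chains H2-Eb1 was at 0.97 on Dasatinib 1 and -0.10 on Dasatinib 2, and H2-Aa at 0.68 and -0.13. The chains H2-Eb2 and H2-Ea ran the other way, at -0.45 and -0.38 on Dasatinib 1 and at 0.02 and 0.16 on Dasatinib 2. H2-Ea is annotated as a transcribed pseudogene. Its other probe sets, too dim to be tested, were at 0.09 and 0.13 on Dasatinib 1. H2-D1, H2-K1 and B2m differed by at most 0.05 on either array in their brightest probe sets. On Dasatinib 1 the other 3 H2-K1 probe sets differed from DMSO 5 by 0.70, 0.42 and 0.23, and the H2-D1 probe set with a mean of 9.85 by 0.36.

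Counted at a log2 difference of 0.5 or more, a size chosen after the values had been seen, 9 of 30 members were higher on Dasatinib 1 than on DMSO 5 and 0 of 30 on Dasatinib 2 than on DMSO 3. Over all genes these shares were 4.67% and 0.407%. The 9 were H2-Q10, Tap1, H2-Eb1, Tap2, H2-Aa, Tapbpl, H2-Q5, H2-T24 and Erap1. Among them DMSO 5 had the lowest value of the 8 arrays in H2-Q10, Tap1, Tap2, H2-Q5 and H2-T24. Dasatinib 1 had the highest in H2-Eb1, Tap2, H2-Aa, Tapbpl and Erap1. The assembly genes stood highest among the roles on Dasatinib 1, with a median difference of 0.58 over 6 genes. The median was 0.05 for 11 class I chains, 0.23 for 5 class II chains, 0.02 for 5 genes of class II loading and control, and 0.02 for all genes. On Dasatinib 2 the same 4 medians were -0.03, 0.02, -0.03 and 0.03, with -0.01 for all genes.

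In limma 0 of 30 members passed under Dasatinib in either fit, as did 0% of all genes. At unadjusted p < 0.05 within array sets 3 members were higher (H2-Q5, Tapbpl and H2-Q10) and 0 lower, against 1.86% and 2.1% of all genes. Without a block 0 members reached that level, against 0.14% of genes higher and 0.162% lower. Tapbpl differed by 0.36 ± 0.14 (SE) within array sets, with a 95% interval of 0.02 to 0.71, and Tap1 by 0.57 ± 0.27, with an interval of -0.06 to 1.20. Of the 30 members 9 were higher and 2 lower on both Dasatinib arrays than on the DMSO array of the own set, against 21.9% and 22.8% of all genes. Without Dasatinib 2 or without DMSO 3, where the difference rests on Dasatinib 1 and DMSO 5 alone and the spread comes from DMSO 2 and DMSO 4, 4 members passed within array sets: H2-Q10 (limma adjusted p = 0.0147), Tap2 (0.0234), H2-Eb1 (0.0245) and Tap1 (0.0254). All 4 were higher under Dasatinib, and 1.73% of all genes passed as higher in that fit.

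**Figure D3:**
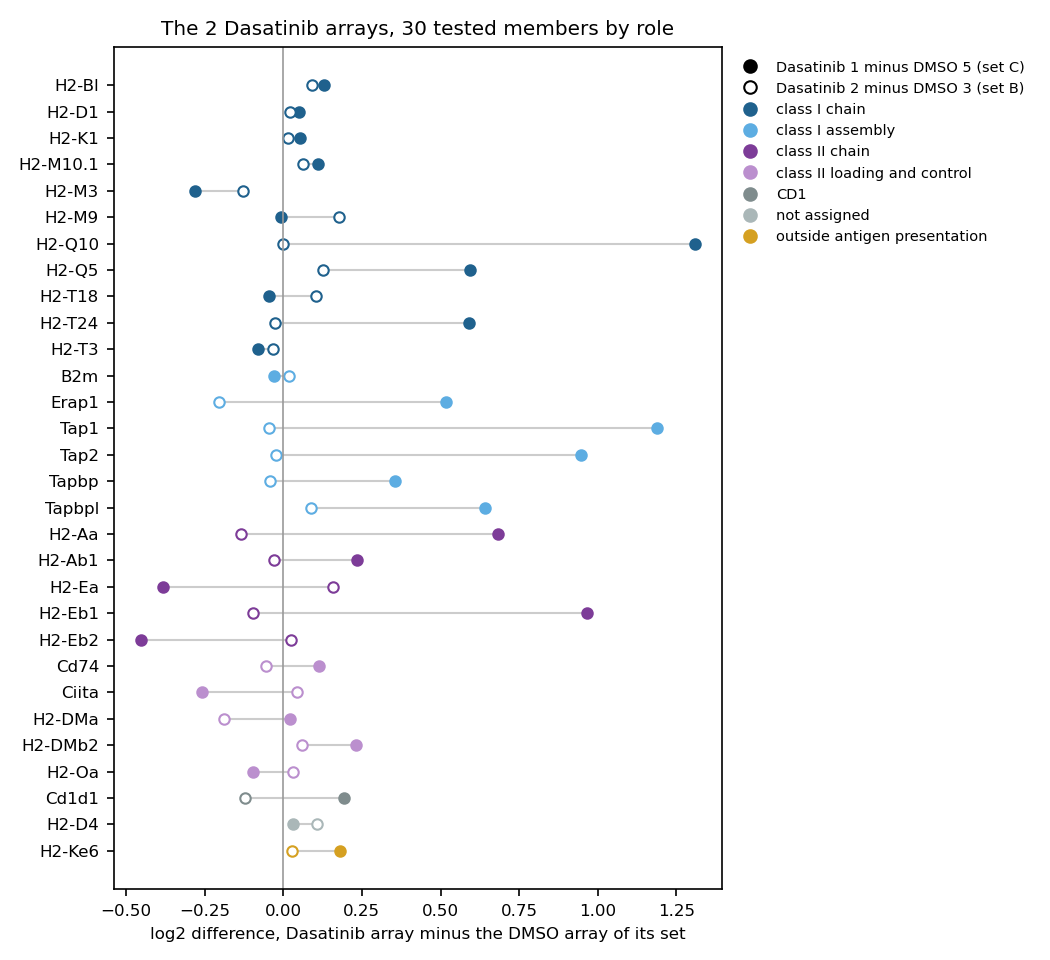
Log2 difference of each Dasatinib array from the DMSO array of its set (x axis) for the 30 tested members by role (y axis). Filled points are Dasatinib 1 minus DMSO 5, open points Dasatinib 2 minus DMSO 3, and colors give the role. Filled points reach 1.31 in H2-Q10, while open points stay between -0.21 and 0.18.

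Interferon-stimulated genes were also higher on Dasatinib 1 than on DMSO 5, but over all 8 arrays only some of these members ran with them. Of 23 genes on that list 23 were higher on Dasatinib 1 than on DMSO 5, with a median difference of 0.92, and 12 were higher on Dasatinib 2 than on DMSO 3, with a median of 0.01. Their summed log2 signal was 14.13 and 14.97 under Dactolisib, 14.86 and 14.98 under Dasatinib, and 14.07, 14.98, 13.93 and 13.92 under DMSO. It was thus high on all 3 arrays of set B and on Dasatinib 1. H2-Aa and H2-Eb1 did not follow that sum, as both were lowest in set B, and Erap1 was highest in set C, DMSO 5 included. Within set C, epithelial markers summed to 15.21 on Dasatinib 1 and 15.27 on DMSO 5, and monocyte and macrophage markers to 14.40 and 14.17, with 10 of 14 higher on Dasatinib 1. C1qa, a complement gene of macrophages, was not among the higher ones, at 9.05 on Dasatinib 1 and 9.13 on DMSO 5. Dendritic cell markers summed to 9.83 on Dasatinib 1 and 9.12 on DMSO 5, with 4 of 8 tested higher on Dasatinib 1, and B cell markers to 10.45 and 10.46. The dendritic cell sum rests mainly on Itgax, which encodes CD11c and had 9.36 on Dasatinib 1 and 8.22 on DMSO 5, while the median difference over the 8 was 0.05 and Flt3 had 5.86 and 6.02. The B cell sum rests mainly on Blnk, at 10.33 on both arrays, and 2 of the 5 tested B cell markers were higher on Dasatinib 1, with a median difference of -0.15. Neither sum therefore speaks for its whole list. Fibroblast markers summed to 10.30 on Dasatinib 1 and 11.06 on DMSO 5. For granulocyte markers the sums were 15.41 and 15.57, with 5 of 12 higher on Dasatinib 1. The part of these cells and genes in the difference was not tested.

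Members of both classes differed between sets A and B, in both directions, and the classes were not tested against each other. All 3 arrays of set B lay above all 3 of set A in 10 of 17 class I members, among them Tap1, Tap2, Tapbp, Tapbpl, H2-Q10 and H2-T24, and in 2 of 10 class II members, Ciita and H2-DMb2. Over all genes this held for 15.8%. All 3 arrays of set A lay above all 3 of set B in 4 of 10 class II members (H2-Aa, H2-Ab1, H2-Eb1 and Cd74), in 3 of 17 class I members (H2-D1, H2-K1 and H2-M9) and in 17.9% of all genes. These counts read each gene from its brightest probe set. The other H2-K1 probe sets ran the other way, with every array of set B above every array of set A. In that with a mean of 8.54, set B had 8.76, 8.82 and 8.59, and set A 8.40, 8.43 and 8.24. The sets share no treatment throughout, and what separates them was not tested. H2-T24 had 6.87 and 7.48 under Dactolisib, 6.88 and 7.54 under Dasatinib, and 6.98, 7.57, 6.84 and 6.29 under DMSO, with its 3 highest values in set B.

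**Figure D4:**
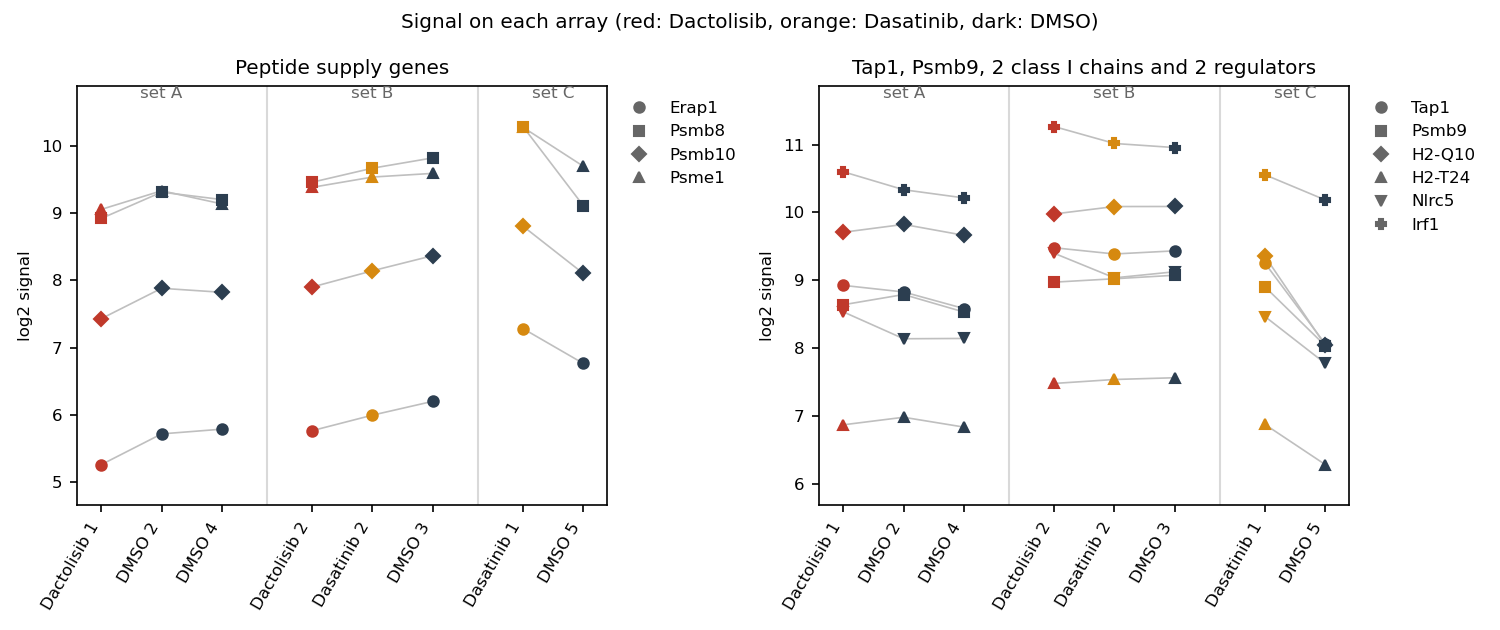
Log2 signal (y axis) on each of the 8 arrays (x axis), ordered by set, for 4 genes of peptide supply (left) and for Tap1, Psmb9, 2 class I chains and the regulators Nlrc5 and Irf1 (right). Points are single genes. Psmb10 and Erap1 are lowest on the Dactolisib array of set A and of set B, and H2-Q10 lies at 8.04 on DMSO 5.

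Dactolisib and Dasatinib were also compared directly at the same dose and time, as 1 pair of drugs. Within array sets H2-M3 was 0.36 ± 0.11 (SE) higher under Dactolisib than under Dasatinib (limma adjusted p = 0.224). Erap1 differed by -0.50 ± 0.18 (limma adjusted p = 0.278) and Tapbpl by -0.41 ± 0.15 (limma adjusted p = 0.285). In limma 0 of 30 members and 0% of genes passed after adjustment in either fit. At unadjusted p < 0.05 within array sets 2 members were higher and 2 lower, against 5.08% and 9.78% of all genes, and without a block 0 were higher and 1 lower, Tapbpl, against 1.44% and 2.39%. The median difference within array sets was -0.05 for class I, -0.04 for class II and -0.01 for all genes. In set B, where both drugs share DMSO 3, Erap1 had 5.76 on Dactolisib 2, 5.99 on Dasatinib 2 and 6.20 on DMSO 3. Without Dasatinib 2, 7 members passed within array sets, all of them lower under Dactolisib: Erap1, H2-Aa, H2-Eb1, H2-Q10, Tap1, Tap2 and Tapbpl, with limma adjusted p between 0.00721 and 0.0375. Over all genes 2.91% passed as lower in that fit, in which Dasatinib 1 is the only Dasatinib array and the spread comes from the Dactolisib and DMSO arrays.

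The remaining members include a gene of lipid presentation and several dim chains. Cd1d1, which presents lipids to natural killer T cells, had 6.40 and 6.28 under Dactolisib, 7.12 and 6.41 under Dasatinib, and 6.42, 6.53, 6.52 and 6.93 under DMSO. It was highest on both arrays of set C. H2-Oa, a chain of the H2-DM inhibitor H2-DO, ranged from 5.27 to 5.99 over the 8 arrays, and H2-Ob, its partner chain, from 3.15 to 4.34 and was not tested. H2-Q2 had 4.30 on Dasatinib 1 and 4.18 on DMSO 5, and 2.12 to 2.48 on the other 6 arrays, which is the widest range of the 32 members. H2-M10.1, H2-M9, H2-T18, H2-T3, H2-DMb2, H2-Ea, H2-Eb2 and H2-D4 differed between Dactolisib and DMSO by -0.09 to 0.13 within array sets.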

How the data were processed

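RNA of 8 Gr-MDSC samples was measured on Affymetrix whole-genome mouse arrays. The authors deposited a single table, with 45101 probe sets as log2 signals. Signal summary is given as MAS5 in the submitters' processing notes and as the oligo package in the methods, and RNA extraction as Trizol in the labels and RNeasy in the methods. The array medians lay between 4.82 and 4.87, and the values were used as deposited. The number of arrays limits the precision. After removal of 64 control probe sets, the platform annotation gave 1 gene for 34945 probe sets, several for 932 and none for 9160, and 34741 of the single-gene identifiers were found in RefSeq. H2-DMb1 and H2-T23 have only probe sets of several genes and are not members, and 15 such probe sets include the name of an eligible gene. Linear models were fitted with limma 3.58.1 (R 4.3.3) to the 30025 probe sets of highest mean signal (14238 genes, each read from its brightest probe set), with moderated variance. P-values were adjusted by the method of Benjamini and Hochberg over all these probe sets (threshold 0.05). The fit within array sets has the set as a block. Sets came from average linkage on 1 minus Pearson's correlation, without member probe sets. Spearman's correlation across probe sets was at least 0.982 within a set and at most 0.972 between sets. Values on every array were given for a fixed list of members (H2-K1, H2-D1, B2m, Tap1, Tap2, Tapbp, Erap1, H2-Aa, H2-Ab1, H2-Eb1, Cd74, Ciita and H2-DMa) and for up to 3 members with the lowest p in each comparison and fit. H2-T24, H2-Q2, Cd1d1, further probe sets of H2-D1 and H2-K1, and the genes that are not members were named after their values were seen. Summed signals are log2 of the sum of a list's linear signals. The fits were tested on simulated data. Alternatives were quantile normalization, 32 added before log2, other filters, all probe sets of a gene averaged, other samples per fit, another prior, array weights, the methods' t-test and each array left out. Leaving out set C was chosen after seeing the data. The members, lists, sets and tests were chosen with earlier results of these data known.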

Additional observations from a re-analysis of the deposited data

How the results depend on the processing

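The number of arrays limits every value here, and within array sets a drug against DMSO leaves few residual degrees of freedom. Of 270 alternatives of the counts of members passing and of the class medians, 228 gave about the main value and 42 moved. A median counted as unmoved when it shifted by less than the spread between DMSO arrays. Some alternatives could not move. Within array sets under Dactolisib, for example, leaving out DMSO 5 or set C repeats the main fit. Within array sets, members passing under Dactolisib (2) became 0 with all 8 arrays and 1 with no filter, and at unadjusted p there were 5. Unadjusted p gave 1 without a block, 3 within array sets under Dasatinib, and 1 and 4 between the drugs. With the mean of probe sets the Dasatinib medians within array sets were 0.19 (class I) and 0.0679 (class II). Between the drugs within array sets, the class II median was -0.13 with no filter and 0.0072 with quantile normalization. With a stricter filter on low signals, which keeps fewer members, the class I medians were 0.0427 (Dactolisib), 0.29 (Dasatinib) and -0.17 (between the drugs within array sets), and the class II medians were -0.16 and -0.0873 (Dactolisib, without and within), 0.0655 (Dasatinib within), and -0.35 and -0.15 (between the drugs). Without set C the class I medians were -0.0022 (Dactolisib) and 0.0154 (Dasatinib within), and class II between the drugs within array sets was 0.0335. Leaving out 1 array gave 0 to 3, 0 to 4 and 0 to 7 members passing within array sets for Dactolisib, Dasatinib and between the drugs, and 0 without a block. The class I medians then ranged over -0.0022 to 0.18, 0.0486 to 0.23 and -0.046 to 0.11 without a block and over -0.0163 to 0.0008, 0.0154 to 0.13 and -0.0898 to -0.0275 within array sets, in the same order. The class II medians ranged over -0.0987 to -0.0133, -0.0491 to 0.0548 and -0.0582 to 0.0491, and over -0.0396 to 0.0195, -0.0022 to 0.0666 and -0.11 to 0.0335. The cause of these moves was not tested. With the replicate block, which could be fitted only between the drugs, 0 members passed, with medians of -0.01 for class I and -0.02 for class II. The replicate 1 minus replicate 2 differences of the drugs correlated at 0.559 across probe sets, but with 2 numbers only and no label that ties them, the numbers were not taken as pairs. The 4 drug arrays alone could not be fitted within array sets.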
